A study of Mus musculus with 4 samples.

Results

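The unfolded protein response and the ATF4 stress response were followed through 35 genes, of the 54842 genes in the deposited table of counts. The genes were chosen by name, as known targets and sensors of endoplasmic reticulum (ER) stress and of ATF4, and all 35 were present in the table and passed the filter on low counts. They were placed in an ATF4 arm of 16 genes, an XBP1 arm of 6 genes, an ATF6 arm of 9 genes and a set of 4 sensors and kinases that start the arms, and several chaperone genes answer to both XBP1 and ATF6.

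Mouse embryonic fibroblasts (MEF cells) that were wt were compared with MEF cells null for Top2β, the topoisomerase that relieves torsion in DNA during transcription, and the study used the pair to ask whether DNA topology acts on the transcription of satellite repeats. There were 2 libraries of total RNA depleted of ribosomal RNA per genotype. No compound was added to either genotype, and both were grown in high glucose DMEM with FBS, L-glutamine, β-mercaptoethanol, nonessential amino acids and sodium pyruvate. The Top2β-null cells derive from Top2β-null mice and were received from other laboratories, and the mouse strain and the age of the embryos are not given in the sources used here. Origin of the cells and genotype can therefore not be told apart, and nothing says that the libraries of a genotype came from separate cultures, so that p-values measure the spread between these samples only.

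The 4 libraries held between 133116830 and 149647278 counts. Normalized counts are counts scaled by edgeR's TMM factors to a common library size. The targeted gene Top2b, on chromosome 14, had 18259 and 18465 normalized counts in wt against 3879 and 3789 in the Top2β-null libraries, where it kept 20.9% of the wt mean. All 10 fibroblast markers looked at were detected, with sums of 1303090 and 1327720 normalized counts in wt against 885751 and 890720 in Top2β-null libraries. The markers did not move together. The abundant Col1a1, Fn1 and Vim were lower in Top2β-null libraries, and Postn went from 2573 and 2563 to 41.4 and 46.6 normalized counts. Thy1, Pdgfra, Pdgfrb and Dcn were higher, Dcn going from 226 and 223 to 7053 and 7239. Of 8 leukocyte markers, 2 had over 100 normalized counts in any library, Ptprc had at most 6.76 and Tyrobp had 0 in all 4. The sums of the 8 were 2419 and 2498 in wt and 1355 and 1357 in Top2β-null libraries. Of the 2, Cd68 was lower (1641 and 1688 against 302 and 289) and Csf1r higher (740 and 767 against 962 and 978), and Itgam and Fcer1g were higher, at no more than 53.9 normalized counts. The 5 epithelial markers summed to at most 45.4 normalized counts, and the 5 endothelial markers to 123 and 129 in wt and 243 and 255 in Top2β-null libraries. In bulk RNA, fewer cells of a type and less RNA per cell cannot be told apart, and the part of these marker differences in the results was not tested.

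When unfolded proteins accumulate in the ER, 3 sensors in its membrane respond. PERK (encoded by Eif2ak3) phosphorylates the initiation factor eIF2α, which lowers most translation but favours that of ATF4, and GCN2 (Eif2ak4) does the same when amino acids are short. IRE1α (Ern1) splices the mRNA of Xbp1 so that it encodes an active transcription factor, while ATF6 is cut in the Golgi and its free part enters the nucleus. Fibroblasts secrete much collagen and depend on these chaperones and on the serine and glycine that the ATF4 targets supply. Counts per gene show mRNA levels. They do not show translation of ATF4, splicing of Xbp1 or cleavage of ATF6.

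In Top2β-null MEF cells the mRNA of Atf4 itself, of the apoptotic factor Ddit3 and of most stress effectors was lower, with Ddit4 5.16-fold below wt, while of the 6 amino acid and folate enzymes Psat1, Phgdh and Mthfd2 were 1.11 to 1.30-fold higher, Shmt2 was 1.16-fold lower, and Asns and Psph did not pass the test. The 4 sensors were slightly lower, Xbp1 was 1.51-fold lower, and 6 of the 9 genes of the ATF6 arm were higher, up to 1.57-fold for Pdia4. Over the 35 genes, 12 were higher and 17 lower at an adjusted p below 0.05 by edgeR's quasi-likelihood test after Benjamini-Hochberg adjustment, and 6 did not pass (Asns, Psph, Slc7a5, Sesn2, Pdia6 and Hspa5).

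These counts stand against a background in which much of the transcriptome differed. Among all 26566 features tested (genes and repeat families), 32.5% were higher and 32.5% lower by the same rule. Among the 16656 genes with a mean normalized count over 100, as all 35 have (1065 to 62975 normalized counts), 37.3% were higher and 40.3% lower. With 34.3% higher and 48.6% lower, the 35 genes were near this background. The libraries of the 2 genotypes overlapped in 3 of the 35 genes, beside 1898 of the 16656 genes and 5181 of the 26566 features. Groups without overlap were therefore the rule here and set no gene apart. By the cut-offs of the study's methods (adjusted p below 0.05, absolute log2 fold change over 1 and mean normalized count over 100), 0 of the 35 were called higher and 2 lower (Ddit3 and Ddit4), in edgeR as in DESeq2. The highest log2 fold change of the 35 was 0.65, so that none could be called higher at an unadjusted p either. The background of such calls was 5.27% higher and 4.97% lower over all features, and 8.32% higher and 7.91% lower over the genes with a mean over 100. The median absolute log2 fold change was 0.22 over the 35 genes and 0.35 over genes with a mean over 100, and the median log2 fold change was -0.09 and -0.02, respectively. The median of the 35 was -0.0396 without Top2β-null replicate 1 and -0.0238 under scaling to the total count, which moved the median over all features by 0.0698.

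**Figure D1:**
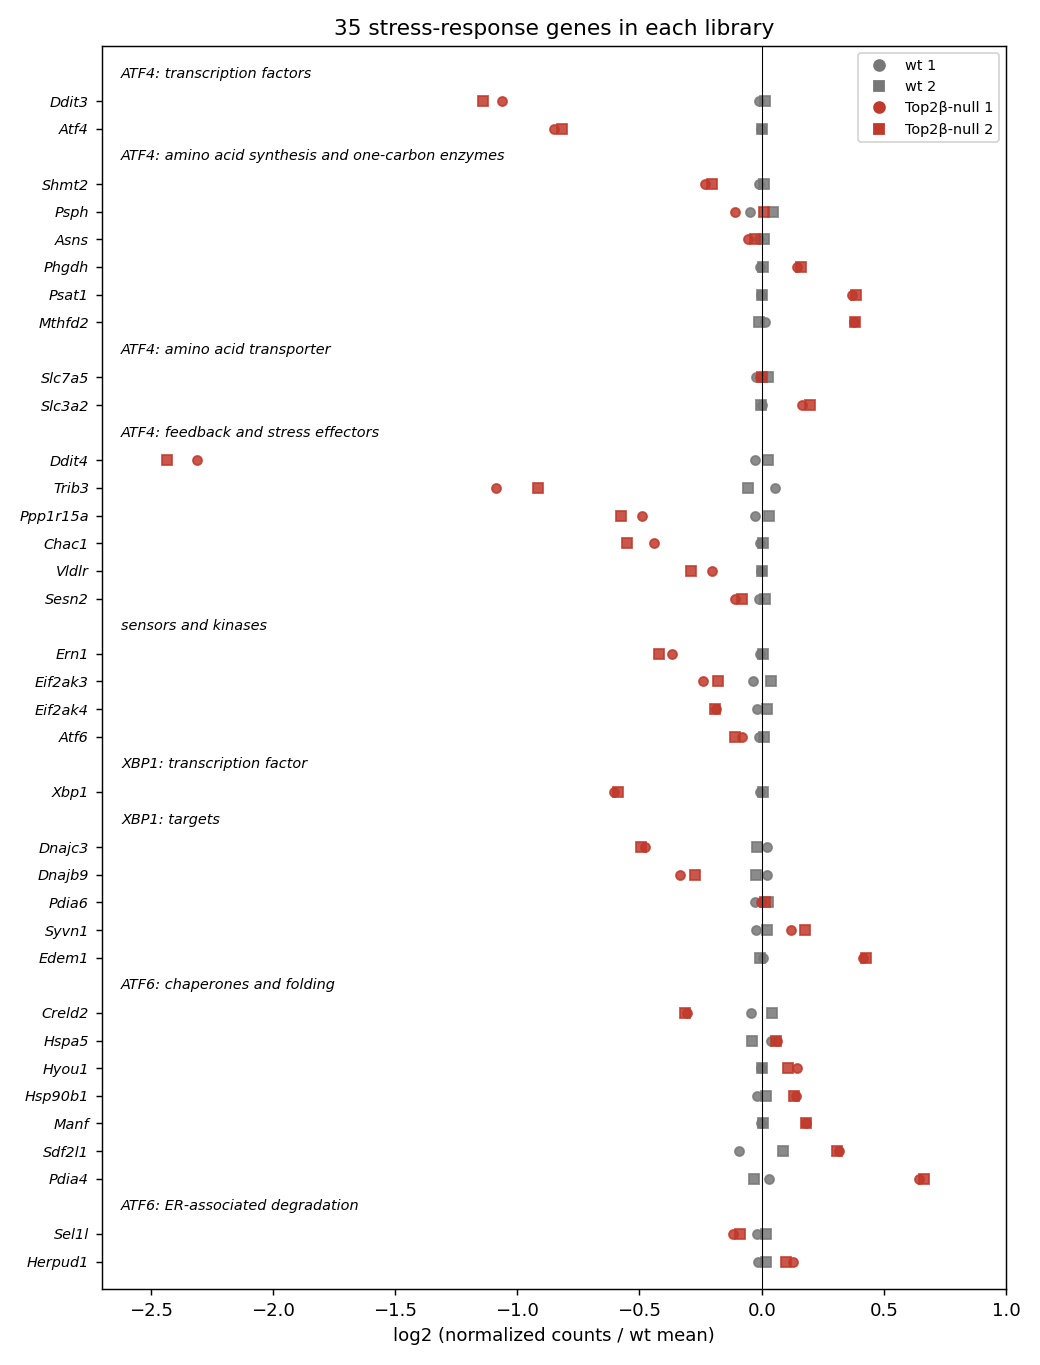
Each row is 1 of the 35 genes and each point 1 library, plotted as the log2 ratio of its normalized counts to the wt mean (grey, wt libraries, red, Top2β-null libraries, circles and squares, replicates 1 and 2). Rows are grouped by arm and function and ordered by log2 fold change. The red points of Ddit4, Ddit3, Trib3 and Atf4 lie farthest to the left and those of Pdia4 farthest to the right, and red and grey overlap for Psph, Slc7a5 and Pdia6.

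Atf4 encodes the transcription factor at the head of the integrated stress response and lies on chr15:80255184-80257541 (GRCm38, forward strand). With 37721 and 37767 normalized counts in wt, it was at 20918 and 21442 in Top2β-null libraries. Both Top2β-null libraries lay well below both wt libraries, and the libraries of a genotype stood close together. The Top2β-null mean was 56.1% of wt, a log2 fold change of -0.83 (SE 0.0254, adjusted p = 5.81e-14, edgeR's quasi-likelihood test). Per kilobase of exon, Atf4 had 16007 normalized counts in wt, the highest value of the 35 genes in these cells, and 8982 in Top2β-null MEF cells.

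Ddit3 encodes CHOP, a partner and target of ATF4 that promotes apoptosis under lasting stress (chr10:127290774-127296288, forward strand). Its 2692 and 2740 normalized counts in wt stood against 1300 and 1234 in Top2β-null MEF cells. No Top2β-null library came near a wt library, and the log2 fold change was -1.10 (SE 0.0472, adjusted p = 4.64e-12, edgeR's quasi-likelihood test). A second identifier of the table with the same symbol, ENSMUSG00000116429, overlaps the first on the same strand. Its 270 and 320 normalized counts in wt stood above 147 and 138 in Top2β-null libraries, a log2 fold change of -1.05 (SE 0.127, adjusted p = 1.98e-06, edgeR's quasi-likelihood test). The tRNA synthetase gene Mars, whose locus starts at chr10:127296221, overlaps only the end of Ddit3, on the opposite strand. It was lower as well (log2 fold change -0.50), and how reads were assigned among the 3 is not given in the sources used here.

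Ddit4 encodes REDD1, an inhibitor of the growth kinase complex mTORC1 (chr10:59949669-59951834, reverse strand). It showed the largest difference of the 35 genes, with 1753 and 1817 normalized counts in wt against 360 and 331 in Top2β-null libraries. The Top2β-null libraries held 19.4% of the wt mean, and the log2 fold change was -2.37 (SE 0.0637, adjusted p = 1.22e-14, edgeR's quasi-likelihood test). Trib3, a pseudokinase that restrains ATF4 and CHOP, came next among the effectors. It had 1572 and 1456 normalized counts in wt and 714 and 803 in Top2β-null libraries, a log2 fold change of -0.996 (SE 0.0648, adjusted p = 1.02e-09, edgeR's quasi-likelihood test). The groups did not overlap. Trib3 missed the cut-off of the study's methods by less than its SE and passed it without wt replicate 2 and without Top2β-null replicate 2.

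The remaining effectors differed less. Ppp1r15a encodes GADD34, which directs a phosphatase to eIF2α and so ends the response, and it had 3396 and 3532 normalized counts in wt and 2466 and 2324 in Top2β-null libraries (log2 fold change -0.53, SE 0.0426, adjusted p = 1.34e-08, edgeR's quasi-likelihood test). Chac1, an enzyme that degrades glutathione, had 1504 and 1515 normalized counts in wt and 1112 and 1030 in Top2β-null libraries (log2 fold change -0.50). For both genes each Top2β-null library lay below each wt library. Vldlr, a lipoprotein receptor, fell by 0.25 on the log2 scale. Sesn2, a leucine sensor that holds back mTORC1, had 1337 and 1359 against 1250 and 1277 normalized counts, groups that did not overlap but did not pass the test (log2 fold change -0.09, adjusted p = 0.12, edgeR's quasi-likelihood test). Of the 8 genes for transcription factors and effectors of the ATF4 arm, 7 were lower at an adjusted p below 0.05, beside a background of 40.3%, and all 8 had a log2 fold change below 0, as 13225 of the 26566 features did. Their median was -0.68.

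The 6 enzymes of amino acid synthesis and one-carbon metabolism went both ways, with 3 higher, 1 lower and 2 that did not pass. Over genes with a mean over 100, 37.3% were higher and 40.3% lower. Phgdh, Psat1 and Psph catalyse the steps from a glycolytic intermediate to serine. Phgdh, one of the 3 genes with the highest mean level per kilobase, had 30493 and 30810 normalized counts in wt and 33880 and 34235 in Top2β-null libraries (log2 fold change 0.15, SE 0.0248, adjusted p = 5.16e-05, edgeR's quasi-likelihood test). Psat1 had 43962 and 44127 in wt and 56973 and 57529 in Top2β-null libraries (log2 fold change 0.38, SE 0.0254, adjusted p = 1.55e-09). The Top2β-null libraries of both genes lay above the wt libraries. Psph had 4394 and 4690 against 4211 and 4576 normalized counts, and here the groups overlapped (log2 fold change -0.05, adjusted p = 0.333). Psph shares its locus with Cct6a on the opposite strand, which had 54398 to 68147 counts per library. Without wt replicate 1, Psph passed the test as lower (log2 fold change -0.11, adjusted p = 0.0187).

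Shmt2 and Mthfd2 carry the serine carbon into the mitochondrial folate pool. Mthfd2 had 9359 and 9205 normalized counts in wt and 12048 and 12106 in Top2β-null libraries (log2 fold change 0.38, SE 0.0250, adjusted p = 1.15e-09, edgeR's quasi-likelihood test). Shmt2 went the other way, with 34353 and 34880 in wt and 29479 and 30088 in Top2β-null libraries (log2 fold change -0.22, SE 0.0254, adjusted p = 1.4e-06). Thus neighbours in the same pathway lay on opposite sides of wt, and neither pair of groups overlapped, as in most genes. Asns, asparagine synthetase, had 12603 and 12768 against 12212 and 12453 normalized counts and did not pass the test (log2 fold change -0.04, adjusted p = 0.168).

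Slc7a5 and Slc3a2 encode the light and heavy chain of the exchanger that brings leucine and other large neutral amino acids into the cell. Slc7a5 had 33908 and 35104 normalized counts in wt and 34364 and 34492 in Top2β-null libraries, so that the Top2β-null values lay between those of wt (adjusted p = 0.922 by edgeR's quasi-likelihood test, but 0.0392 and higher under scaling to the total count). The locus of Slc7a5 overlaps Gm20388 on the opposite strand, with 7531 to 8877 counts per library. Slc3a2 was higher, with 20627 and 20542 against 23068 and 23604 normalized counts (log2 fold change 0.18, SE 0.0247, adjusted p = 8.11e-06). Beside a background of 37.3% higher and 40.3% lower, 4 of the 8 genes for enzymes and transporter chains were higher and 1 lower. The other 3 did not pass, and the median log2 fold change of the 8 was 0.07. The difference between these 8 genes and the factors and effectors of the arm was not tested. The mean levels of the 8, from 1032 to 13015 normalized counts per kilobase of exon, were all above those of the 6 effectors, from 110 to 997.

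The ratio of 2 genes within a library needs no scaling between libraries. The log2 ratio of Atf4 to Psat1 counts was -0.22 ± 0.0026 (SD, n = 2) in wt against -1.43 ± 0.0153 (SD, n = 2) in Top2β-null libraries, and the genotypes differed by -1.21. That of Ddit3 to Pdia4 was -1.996 ± 0.0599 in wt against -3.75 ± 0.0670 in Top2β-null libraries, and the difference between genotypes was -1.75. For Xbp1 to Hspa5 it was -3.17 ± 0.0648 in wt against -3.83 ± 0.0131 in Top2β-null libraries, with a difference between genotypes of -0.66. The pairs were chosen with the values of their genes known, and each difference restates the fold changes of its genes free of scaling, as a description with no test.

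**Figure D2:**
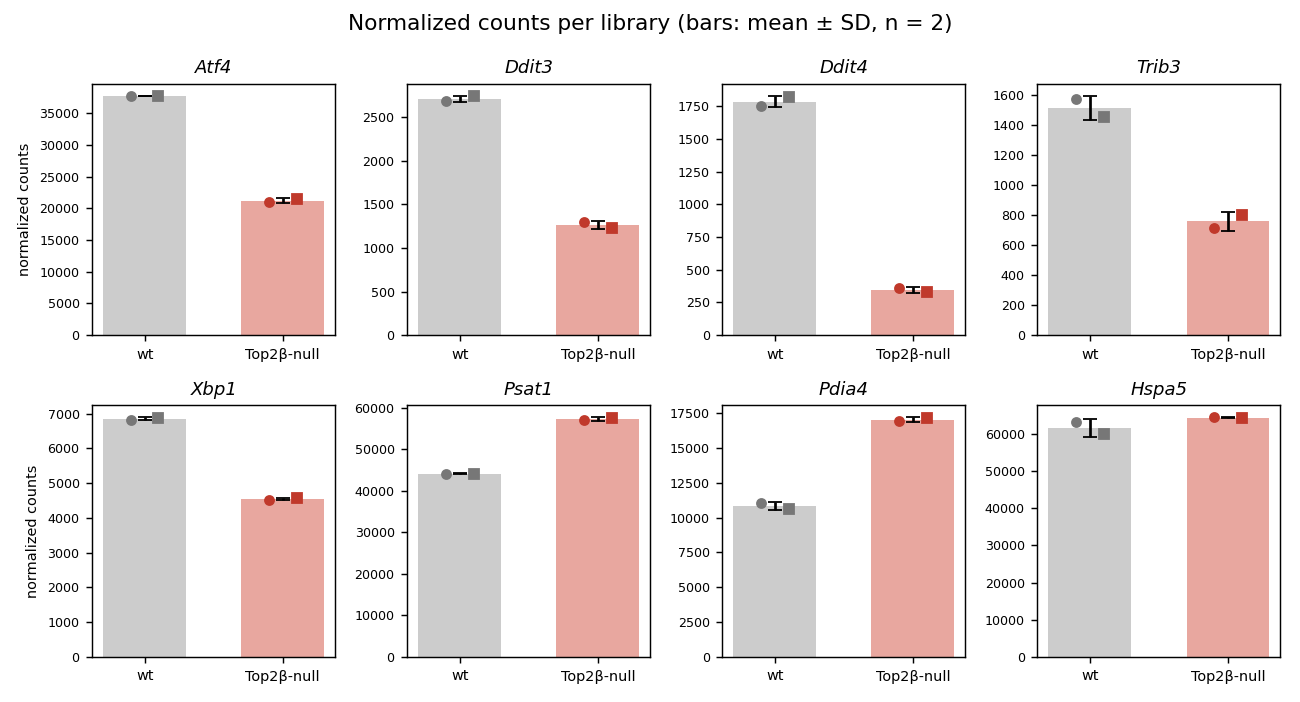
Normalized counts of 8 genes are plotted on linear axes that start at 0, with bars for the mean of 2 libraries, error bars for the SD and points for the libraries (grey, wt, red, Top2β-null). Atf4, Ddit3, Ddit4, Trib3 and Xbp1 have lower bars in Top2β-null MEF cells, Psat1 and Pdia4 higher bars, and the Hspa5 bar of Top2β-null MEF cells stands at 104% of that of wt.

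All 4 sensors and kinases were lower in Top2β-null MEF cells, beside a background of 40.3% over genes with a mean over 100, and none passed the cut-offs of the study's methods. Ern1, the kinase and RNase IRE1α, had 4664 and 4712 normalized counts in wt and 3634 and 3507 in Top2β-null libraries (log2 fold change -0.39, SE 0.0338, adjusted p = 3.43e-08, edgeR's quasi-likelihood test). Eif2ak3, which encodes PERK, had 2672 and 2811 in wt and 2323 and 2425 in Top2β-null libraries (log2 fold change -0.21, SE 0.0438, adjusted p = 0.00059). For Eif2ak4, the amino acid sensor GCN2, 7133 and 7335 stood against 6362 and 6340 normalized counts (log2 fold change -0.19, SE 0.0274, adjusted p = 1.62e-05). In each of these the wt libraries lay above the Top2β-null libraries. Atf6 differed least, with 12423 and 12620 in wt and 11827 and 11611 in Top2β-null libraries (log2 fold change -0.10, SE 0.0251, adjusted p = 0.00335). The call for Atf6 was lost when libraries were scaled to their total count (log2 fold change -0.03, adjusted p = 0.396).

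Of the other eIF2 kinases, which are not among the 35 genes, Eif2ak2 (PKR, which binds double-stranded RNA) and Eif2ak1 (HRI, which responds to lack of heme) were higher, with log2 fold changes of 0.52 and 0.26. They belong to a list of 11 genes, outside the 35, that set eIF2 phosphorylation and its exchange factor. Of the 11, these kinases included, 4 were higher and 6 lower at an adjusted p below 0.05, and the median log2 fold change was -0.08. The background over genes with a mean over 100 was 37.3% higher and 40.3% lower.

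Xbp1 encodes the transcription factor that IRE1α activates and lies on chr11:5520659-5525893 (forward strand). Its normalized counts were 6829 and 6884 in wt against 4513 and 4561 in Top2β-null libraries. The groups stood far apart for the small spread within them, and the Top2β-null mean was 66.2% of wt (log2 fold change -0.60, SE 0.0283, adjusted p = 1.75e-11, edgeR's quasi-likelihood test). The counts cover spliced and unspliced Xbp1 mRNA alike.

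Of the 5 targets in the XBP1 arm, 2 were higher, 2 lower and 1 did not pass. These shares, 40% and 40%, were near the background of 37.3% and 40.3% over genes with a mean over 100. Dnajc3, a co-chaperone that inhibits PERK, had 8719 and 8482 normalized counts in wt and 6174 and 6107 in Top2β-null libraries (log2 fold change -0.49, SE 0.0270, adjusted p = 1.33e-10, edgeR's quasi-likelihood test). Dnajb9, a co-chaperone of BiP, also fell, by 0.30 on the log2 scale. Edem1, which hands misfolded glycoproteins to degradation, had 7952 and 7882 in wt and 10565 and 10635 in Top2β-null libraries (log2 fold change 0.42, SE 0.0250, adjusted p = 3.2e-10). Syvn1, the ubiquitin ligase HRD1 of ER-associated degradation, had a log2 fold change of 0.15 (SE 0.0312, adjusted p = 0.00055). Its locus overlaps Mrpl49 on the opposite strand, which had 3984 and 4291 counts in wt and 4570 and 4877 in Top2β-null libraries, so the value of Syvn1 is uncertain. Pdia6, a disulfide isomerase, had 15223 and 15775 against 15472 and 15664 normalized counts, with groups that overlapped (adjusted p = 0.847, but 0.0188 and higher under scaling to the total count). The median over the arm, Xbp1 included, was -0.15, with 2 of its 6 genes higher and 3 lower.

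Hspa5, on chr2:34771970-34777547, encodes BiP, the main chaperone of the ER lumen and the usual readout of ER stress. It had 63328 and 59907 normalized counts in wt and 64411 and 64256 in Top2β-null libraries. The groups did not overlap, but the wt libraries were farther apart than the group means, and the difference did not pass the test (log2 fold change 0.06, SE 0.0296, adjusted p = 0.0776, edgeR's quasi-likelihood test). Without wt replicate 1, Top2β-null replicate 1 or Top2β-null replicate 2 the adjusted p fell below 0.05, and without wt replicate 2 it was 0.864. It also passed as higher under scaling to the total count, with genes-only TMM factors and without the filter on low counts (adjusted p = 0.0374 or lower). Hsp90b1 (GRP94), the ER member of the HSP90 chaperones, had the highest mean level of the 35 genes per kilobase of exon. It had 56695 and 58237 normalized counts in wt and 63423 and 62963 in Top2β-null libraries, all Top2β-null values lying above those of wt (log2 fold change 0.14, SE 0.0266, adjusted p = 0.000282). Its locus overlaps other annotated genes on both strands, the largest being 1810014B01Rik on the opposite strand with 10136 to 11160 counts per library.

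Pdia4, a disulfide isomerase, was the gene with the largest rise among the 35. It had 11055 and 10612 normalized counts in wt and 16922 and 17157 in Top2β-null libraries, a 1.57-fold difference with no overlap (log2 fold change 0.65, SE 0.0267, adjusted p = 2.56e-12, edgeR's quasi-likelihood test). Sdf2l1, a partner of BiP, was higher by a log2 fold change of 0.31 and had 967 and 1098 normalized counts in wt and 1287 and 1279 in Top2β-null libraries. Manf, a secreted ER stress factor, and Hyou1, the exchange factor of BiP, had log2 fold changes of 0.18 and 0.13. The annotated locus of Manf overlaps Rbm15b on the same strand and Dcaf1 on the opposite strand, so its value is uncertain. Rbm15b had 9223 and 9593 counts in wt and 14368 and 15359 in Top2β-null libraries, and Dcaf1 had 9378 to 9596 per library. Creld2 was the 1 of the 7 chaperones and folding factors that was lower, with 3818 and 4044 against 3178 and 3160 normalized counts (log2 fold change -0.31, SE 0.0384, adjusted p = 2.57e-06).

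Herpud1 and Sel1l, which organise the HRD1 complex of ER-associated degradation, had log2 fold changes of 0.11 and -0.10 (adjusted p = 0.00719 and 0.00284, edgeR's quasi-likelihood test). Their calls depended on single libraries. Herpud1 did not pass without wt replicate 1 (adjusted p = 0.0881), and Sel1l did not pass without Top2β-null replicate 1 (adjusted p = 0.157) or under scaling to the total count (adjusted p = 0.306). The ATF6 arm as a whole had 6 genes higher, Manf and Herpud1 among them, 2 lower and 1 that did not pass. Its median log2 fold change was 0.13. The background over genes with a mean over 100 was 37.3% higher and 40.3% lower. Beside the same background, the ATF4 arm had 4 higher, 8 lower and 4 that did not pass, with a median of -0.16, which was -0.101 without Top2β-null replicate 1 and -0.0854 under scaling to the total count. The XBP1 arm went from -0.15 to -0.0894 and -0.0778 in the same settings, and the ATF6 arm to 0.148 and 0.197. The sensors had a median of -0.20. Over all features tested the median was 0.0027. The difference between arms was not tested.

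**Figure D3:**
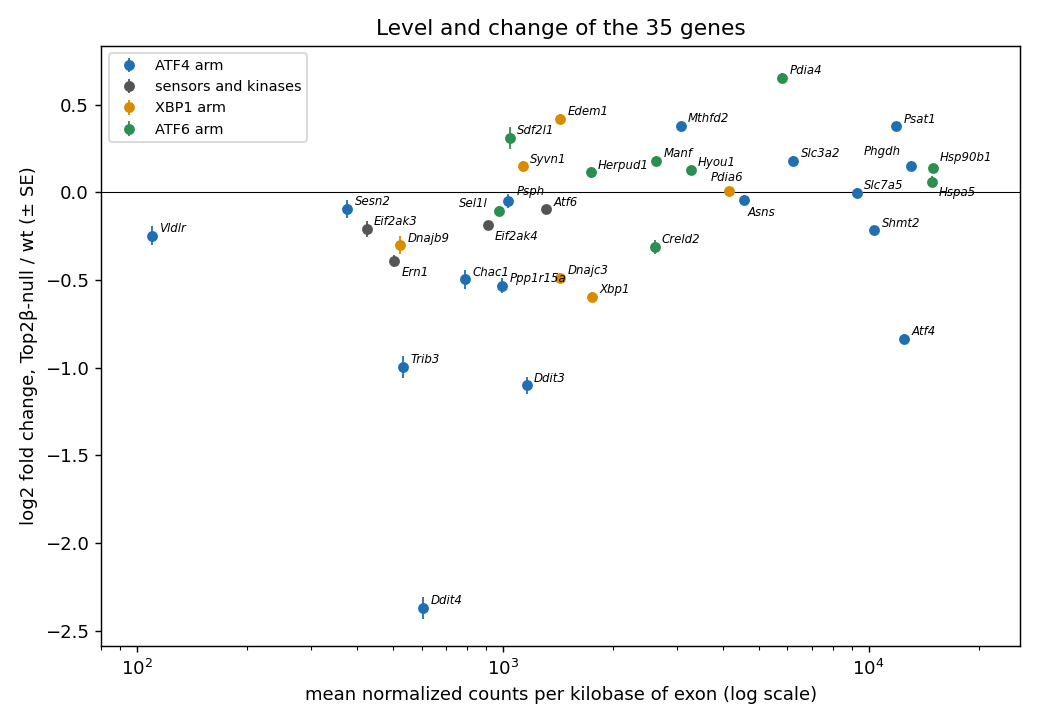
The mean level of each of the 35 genes over the 4 libraries (normalized counts per kilobase of exon, log axis) is plotted against its log2 fold change in Top2β-null over wt MEF cells, with vertical bars for the SE and colours for the arms. The genes with the largest falls, Ddit4, Ddit3 and Trib3, have levels of 535 to 1163 per kilobase, while Atf4, which also fell, is among the most abundant at 12494.

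Promoters were searched for the short sequences through which these factors act, and matches are printed beside the direction of their genes as a description. Sequences from 250 bases before to 50 bases after the start of transcription were taken from RefSeq (GRCm38.p6) and held an entry for 31 of the 35 genes (34 promoters). On either strand, the ER stress element ERSE, here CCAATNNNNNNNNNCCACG, was found in 0.119% of 32851 promoters, and among the 35 genes in Hspa5, Hsp90b1, Pdia6, Dnajc3, Creld2 and Syvn1. The 4 of these genes that passed the test are shown, 5′ to 3′ along the strand of the gene, with the element in capitals, at chr14:118937797-118937875 (forward strand), chr15:88819490-88819568 (forward strand), chr10:86705608-86705686 (reverse strand) and chr19:6046502-6046575 (forward strand). The element of Creld2 lies on the opposite strand and is seen as its reverse complement.
Dnajc3: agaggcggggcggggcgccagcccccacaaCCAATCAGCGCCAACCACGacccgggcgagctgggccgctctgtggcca
Creld2: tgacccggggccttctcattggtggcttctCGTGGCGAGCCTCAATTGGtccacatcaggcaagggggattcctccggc
Hsp90b1: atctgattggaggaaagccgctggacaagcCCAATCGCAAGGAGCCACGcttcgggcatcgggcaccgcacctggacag
Syvn1: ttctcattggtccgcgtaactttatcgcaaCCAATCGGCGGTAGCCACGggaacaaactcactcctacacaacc

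Of these, Dnajc3 and Creld2 were lower (log2 fold changes -0.49 and -0.31) and Hsp90b1 and Syvn1 higher (0.14 and 0.15). The loci of Hsp90b1 and Syvn1 overlap other annotated genes, as given above, and the value of Syvn1 is uncertain. Hspa5 and Pdia6, which carry the element 65 and 98 bases before their RefSeq start, did not pass the test. The stretch around the match of Hspa5 overlaps an annotated exon. Hsp90b1 held it at 212 bases before its start, as printed, and again at 107. The related element ERSE-II, ATTGGNCCACG, was found in 0.0365% of promoters and in 1 of the 35 genes, Herpud1, 52 bases before the start.
Herpud1: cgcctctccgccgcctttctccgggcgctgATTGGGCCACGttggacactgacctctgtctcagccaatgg

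This stretch lies at chr8:94386347-94386417 on the forward strand, and Herpud1 was higher by a log2 fold change of 0.11. The XBP1 element searched as TGACGTGG (0.676% of promoters) had no match in the promoters of the 31 genes, which says only that these letters are not in the windows searched. The element of ATF4 and C/EBP proteins, searched as TGATGNAA, was found in 3.97% of promoters and in those of Chac1, Trib3, Asns, Vldlr and Herpud1. It is shown for Chac1 (chr2:119351019-119351086, forward strand), where it reads as its reverse complement 193 bases before the start, and for Asns (chr6:7693220-7693237, reverse strand), where it starts 23 bases before the start.
Chac1: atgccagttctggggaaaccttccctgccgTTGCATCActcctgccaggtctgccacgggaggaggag
Asns: ccacaTGATGAAActtcc

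The printed stretch of Asns lies before the RefSeq start but overlaps an annotated exon. Among the 5 genes with this element, Trib3, Chac1 and Vldlr were lower, Herpud1 was higher and Asns did not pass the test. A match of letters is a description of the sequence and was not tested as a site.

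A wider set of 88 genes of the same pathways, not among the 35, was looked at by list. Of these, 24 were higher and 52 lower at an adjusted p below 0.05 (edgeR's quasi-likelihood test), or 27.3% and 59.1%, beside a background of 37.3% and 40.3% over the genes with a mean over 100 (32.5% in each direction over all features). The median log2 fold change was -0.24. The lists were chosen with earlier results of these data known, so these shares are a description of the lists only. By the cut-offs of the study's methods 2 of the 88 were called higher and 8 lower, where the background was 8.32% and 7.91%, so that the lower calls were near it. Of 24 further ATF4 targets and partners, 6 were higher and 15 lower, with a median of -0.31. The secreted glycoprotein gene Stc2 had 2510 and 2526 normalized counts in wt and 992 and 1010 in Top2β-null libraries (log2 fold change -1.33), and the glutamine carrier Slc1a5 had 9314 and 9535 in wt and 4089 and 4017 in Top2β-null libraries (log2 fold change -1.22). Cebpb, a partner of ATF4 in its DNA-binding dimers, was 1 of the 6 that were higher and the only one past the cut-offs of the study's methods, with 4803 and 4468 in wt and 10991 and 11186 in Top2β-null libraries (log2 fold change 1.26, SE 0.0320, adjusted p = 6.05e-15).

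Cytosolic aminoacyl-tRNA synthetases charge tRNAs and include many ATF4 targets. Of the 12 that were listed, 3 were higher and 9 lower, with a median of -0.42. The 12 are a selection that leaves out other members of the family. For this and the following lists the background over genes with a mean over 100 was 37.3% higher and 40.3% lower. Aars, the alanine enzyme, fell from 108693 and 110236 normalized counts in wt to 44990 and 45730 in Top2β-null libraries (log2 fold change -1.27, SE 0.0272, adjusted p = 6.95e-16, edgeR's quasi-likelihood test). Of 20 further XBP1 targets, most for protein entry into the ER and export and others for folding and degradation there, with the RNA ligase of Xbp1 splicing Rtcb, 6 were higher and 8 lower, with a median of -0.02 and all log2 fold changes between -0.91 and 0.32. Of 12 further ATF6 targets and processing genes, 3 were higher and 8 lower, with a median of -0.31, in contrast to the positive median of the 9 genes of the ATF6 arm. In this list Derl2, a channel component of ER-associated degradation, had 12377 and 11588 in wt and 4804 and 5009 in Top2β-null libraries (log2 fold change -1.29).

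Among 9 other ER stress genes, 2 were higher and 6 lower, with a median of -0.44. The background over genes with a mean over 100 was 37.3% higher and 40.3% lower. Creb3l1 encodes OASIS, a membrane-bound transcription factor related to ATF6 that acts on collagen genes. It had 249 and 280 normalized counts in wt and 1174 and 1256 in Top2β-null libraries (log2 fold change 2.20, SE 0.0751, adjusted p = 2.55e-13, edgeR's quasi-likelihood test). Ero1b, an oxidase that drives disulfide formation, had 884 and 874 in wt and 191 and 193 in Top2β-null libraries (log2 fold change -2.20, SE 0.0779, adjusted p = 4.16e-13). Bbc3, the apoptotic gene for PUMA, had 903 and 924 in wt and 437 and 444 in Top2β-null libraries (log2 fold change -1.05). In all 3 the groups were far apart.

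**Figure D4:**
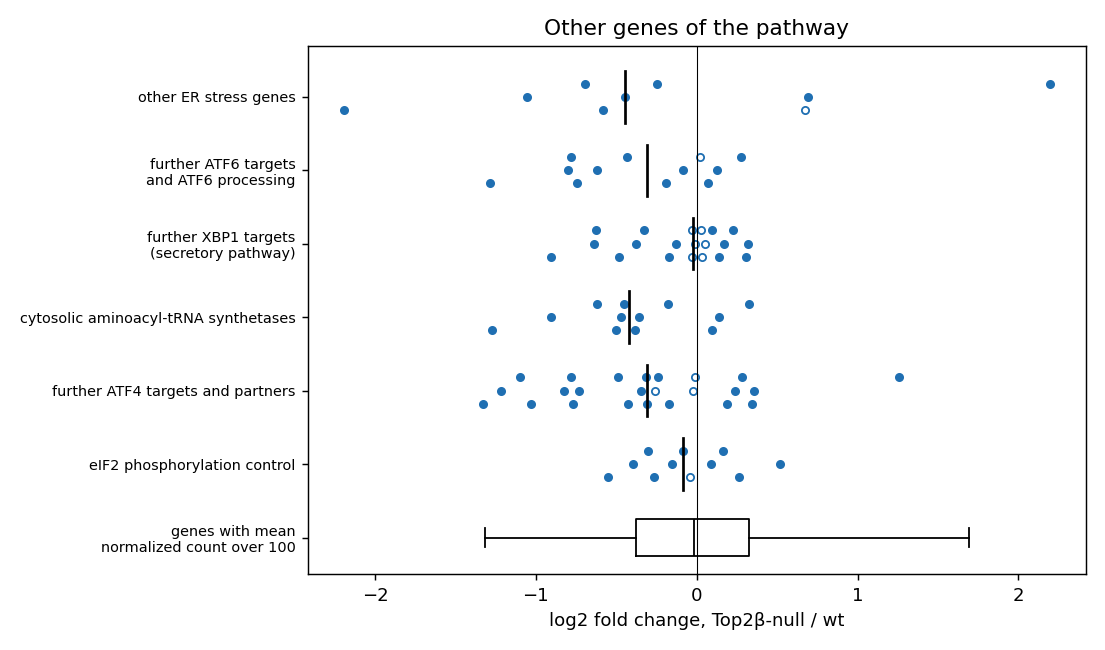
Log2 fold changes in Top2β-null over wt MEF cells are plotted for the 88 other pathway genes in 6 lists (points, filled where the adjusted p was below 0.05, with a bar at each list's median). The box shows the quartiles, and its whiskers the percentiles 5 and 95, of the genes with a mean normalized count over 100. The medians of the 12 tRNA synthetases listed (-0.42) and of the other ER stress genes (-0.44) lie farthest below 0, and Creb3l1 and Ero1b are the outermost points.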

How the data were processed

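RNA without its ribosomal part was sequenced from 2 wt and 2 Top2β-null MEF libraries. The deposited values are raw counts, which the authors made by trimming, alignment to mm10 with STAR and counting with TEtranscripts over Gencode genes and repeat families. The counting mode and the strand setting are not given in the sources used here, so overlapping genes may share counts. Symbols and positions (GRCm38) came from GENCODE M21, which held 54495 of the 54842 gene identifiers.

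A feature was tested when 2 libraries or more had 10 counts or more (26566 features). The test was edgeR 4.0.16 in R 4.3.3 (TMM over genes and repeats, quasi-likelihood, genotype as the only term), with Benjamini-Hochberg adjustment over all of them. Within a genotype, counts varied beyond sampling noise (chi-square over its degrees of freedom, 3.65 for wt, 5.07 for Top2β-null), and each library entered the fit on its own. The scripts were tested on simulated data. The alternatives were DESeq2 1.42.0, other scalings and filters, an adjusted p below 0.01, a replicate block and leaving out each library. The genes and lists were chosen with earlier results of these data known. All 35 genes are named. Outside them, Top2b, marker and overlapping genes are named, and in each list up to 2 called genes per direction with the largest log2 fold change. Eif2ak1 and Eif2ak2 were picked after their values were seen.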

Additional observations from a re-analysis of the deposited data

How the results depend on the processing

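Scaling to the total count moved the medians of log2 fold change most, to -0.0238 over the 35 genes, -0.0854 in the ATF4 arm, -0.0778 in the XBP1 arm and 0.20 in the ATF6 arm. This scaling moved the median over all 26566 features by 0.0698 as well, from 0.0027 to 0.0725, so that the shifts are those of all features together. For the ATF4 arm, TMM factors from genes only gave -0.143 and no filter on low counts -0.138. When single libraries were left out, where the lone library is taken to vary like the other genotype, the medians ranged from -0.12 to -0.0396 over the 35 genes, from -0.18 to -0.10 in the ATF4 arm, from -0.16 to -0.0894 in the XBP1 arm and from 0.10 to 0.16 in the ATF6 arm. The genes that changed sign, Asns, Psph, Slc7a5 and Pdia6, had not passed the test. Under total-count scaling Asns was at 0.0291, Psph at 0.0222 and Slc7a5 at 0.0666. Slc7a5 was at 0.00458 with DESeq2, 0.00883 with genes-only factors, 0.0138 without the filter and 0.00342 with the filter at 100 counts. When single libraries were left out, Asns ranged from -0.0648 to 0.0124, Psph from -0.11 to 0.0497, Slc7a5 from -0.0428 to 0.0386 and Pdia6 from -0.0338 to 0.0543. With all libraries kept, 197 of 210 values for single genes kept direction and call, and with 1 left out 128 of 140. The counts of higher and lower genes stayed within 1.5 times. Same-numbered libraries were not paired (correlation of their deviations 0.0193 over 17953 features), and the replicate block gave 12 higher and 17 lower genes. All 35 genes had mean normalized counts of 1065 or more.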
